A study of Mus musculus with 3 samples.

Results

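Basophil and mast lineage cells were examined among bone marrow cells that were sorted from mice and sequenced cell by cell. Members were chosen by their measured RNA: a cell was a member when its own counts of unique molecular identifiers (UMIs, 1 per captured RNA molecule) held at least 5 UMIs of Mcpt8 and Prss34 together, and at least 2 UMIs of Cpa3, Fcer1a, Cd200r3 and Ms4a2 together. Of 16318 called cells (a minimum of 1000 UMIs and 500 genes, with less than 10% of UMIs mitochondrial), 200 were members. There were 170 in the aGVHD library, 10 in the BMT library and 20 in the WT library. Markers of mature mast cells were almost without counts in them (values below), so the members are called Mcpt8/Prss34 cells here, after the leading genes of the rule.

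The aGVHD group (acute graft-versus-host disease) was female CB6F1 mice irradiated with 2 doses of 4.0 Gy, given marrow nucleated cells of B6.SJL mice (CD45.1+) 4 hours later, and given spleen cells of female C57BL/6 mice in addition. The BMT group (bone marrow transplantation) received the same irradiation and marrow without spleen cells. The WT group was untreated female CB6F1 mice. In every group live cells were kept and any that stained with antibodies to CD45, CD71 or the lineage mix were removed, so the haematopoietic cells in these libraries are those that passed a depletion. Mice per library, ages, the day of sampling and whether marrow donors were male or female are details not given in the labels used here. Each group had 1 library, so there is no replicate spread and no test. Every interval below is a 95% interval of counting error only.

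Basophils are granulocytes that arise in the marrow from granulocyte and monocyte progenitors and circulate at low numbers. They carry the high-affinity IgE receptor, which releases stored histamine and starts the synthesis of leukotrienes and cytokines when crosslinked, and interleukin 3 is their main growth factor. In mice, Mcpt8 and Prss34 encode serine proteases of basophil granules, Cpa3 a carboxypeptidase shared with mast cells, Fcer1a and Ms4a2 the alpha and beta chains of the IgE receptor, and Cd200r3 an activating surface receptor. GATA2, RUNX1 and C/EBP alpha are transcription factors known to act in basophil development.

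The promoter windows of the 4 genes with the most UMIs among those of the rule are shown because these genes define the cells. Each runs from 250 bases before to 50 bases after the start of the gene, is read 5′ to 3′ on the strand of the gene, and was taken from RefSeq (GRCm38.p6). Capitals mark matches on either strand to AGATAA (the GATA motif, TTATCT in reverse) and TGTGGT (the RUNX motif, ACCACA in reverse). The Mcpt8 window is chr14:56085148-56085447 on the minus strand, Prss34 is chr17:25298144-25298443 on the plus strand, Cpa3 is chr3:20242132-20242431 on the minus strand, and Fcer1a is chr1:173227180-173227479 on the minus strand.
Mcpt8: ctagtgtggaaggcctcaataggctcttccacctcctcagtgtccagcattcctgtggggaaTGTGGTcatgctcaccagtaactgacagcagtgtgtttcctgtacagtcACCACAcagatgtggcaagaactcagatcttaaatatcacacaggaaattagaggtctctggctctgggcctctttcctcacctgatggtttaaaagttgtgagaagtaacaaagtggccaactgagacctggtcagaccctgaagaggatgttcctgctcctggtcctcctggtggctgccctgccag
Prss34: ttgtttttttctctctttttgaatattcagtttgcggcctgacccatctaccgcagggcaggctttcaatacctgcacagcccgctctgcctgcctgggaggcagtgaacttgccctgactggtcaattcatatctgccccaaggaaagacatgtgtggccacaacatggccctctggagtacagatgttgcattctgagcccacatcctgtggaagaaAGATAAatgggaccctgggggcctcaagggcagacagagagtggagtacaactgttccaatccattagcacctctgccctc
Cpa3: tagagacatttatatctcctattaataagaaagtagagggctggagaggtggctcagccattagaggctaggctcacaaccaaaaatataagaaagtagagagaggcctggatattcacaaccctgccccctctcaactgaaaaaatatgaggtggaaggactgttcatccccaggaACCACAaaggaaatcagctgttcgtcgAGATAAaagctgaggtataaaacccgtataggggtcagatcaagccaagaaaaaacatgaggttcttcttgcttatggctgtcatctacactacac
Fcer1a: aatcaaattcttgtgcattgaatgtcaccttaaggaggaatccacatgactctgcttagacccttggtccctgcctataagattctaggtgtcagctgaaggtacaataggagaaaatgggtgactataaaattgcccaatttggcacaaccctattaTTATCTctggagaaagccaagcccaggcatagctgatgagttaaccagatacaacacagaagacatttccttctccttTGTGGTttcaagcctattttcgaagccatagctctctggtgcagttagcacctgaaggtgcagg

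The Prss34, Cpa3 and Fcer1a windows each held 1 GATA match, which began 31, 46 and 92 bases before the start. The Mcpt8 window held no GATA match and 2 RUNX matches, 188 and 139 bases before the start. Cpa3 and Fcer1a held 1 RUNX match each, and Prss34 none. A search for TTGCNNAA (C/EBP), whose matches are not capitalised and did not overlap the others, found 1 match in Fcer1a and none in the other 3. Of 32851 RefSeq promoter windows of the same length, 11.2% held AGATAA, 16.8% TGTGGT and 10.8% TTGCNNAA. A match describes the letters of a window and not binding of a factor.

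Mcpt8/Prss34 cells made up 3.05% of the called cells in aGVHD (2.62 to 3.54%), 0.276% in BMT (0.133 to 0.507%) and 0.281% in WT (0.171 to 0.433%). The share of called cells was 11.1 times that of BMT (5.87 to 23.5) and 10.9 times that of WT (6.83 to 18.3) in aGVHD. Between BMT and WT the ratio of these shares was 0.984 (0.411 to 2.20). Haematopoietic clusters held 56.8% of the called cells in aGVHD, 39.2% in BMT and 17.7% in WT, so the denominator differs between libraries. Among cells of haematopoietic clusters, members were 5.38% of 3162 in aGVHD (4.62 to 6.22%), 0.705% of 1418 in BMT (0.339 to 1.29%) and 1.51% of 1259 in WT (0.911 to 2.35%). On that denominator the ratio was 7.62 for aGVHD over BMT (4.05 to 16.2), 3.56 for aGVHD over WT (2.21 to 6.06) and 0.467 for BMT over WT (0.194 to 1.06). The shares are of cells that passed the sort, and how well the depletion worked in each library was not tested.

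**Figure D1:**
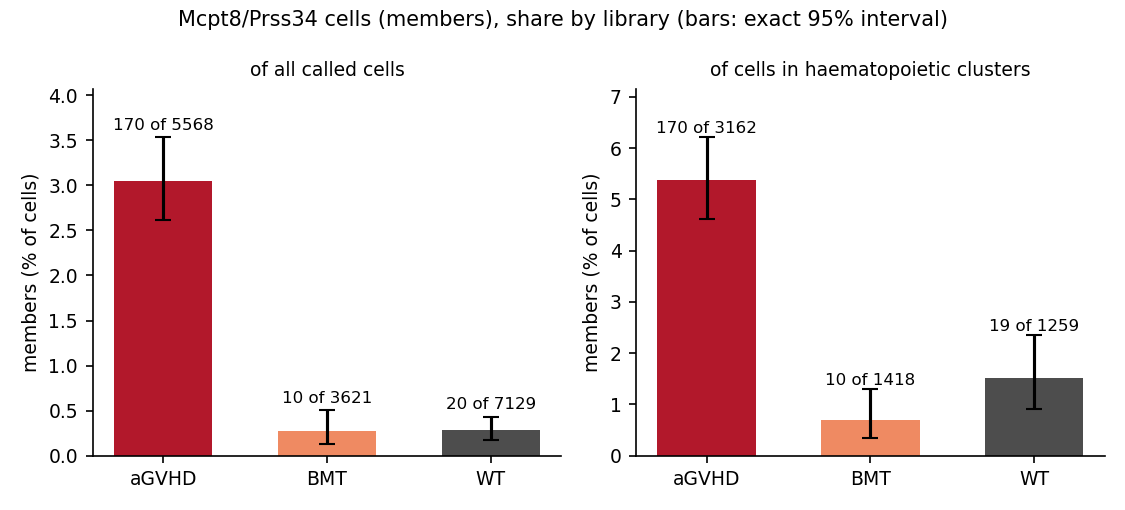
Share of Mcpt8/Prss34 cells (members) in each library, of all called cells (left) and of cells in haematopoietic clusters (right), in percent; bars are shares and whiskers exact 95% binomial intervals. The aGVHD bar stands highest on both sides, at 3.05% and 5.38%.

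The libraries held 67439098 UMIs in aGVHD, 44219063 in BMT and 86575425 in WT. Between 8 and 11 barcodes of called cells were shared between any 2 libraries, and 1 member carried such a barcode. Members had a median of 11066.5 UMIs and 2469.5 genes in aGVHD, 12035.5 UMIs and 2751 genes in BMT, and 15054 UMIs and 2941.5 genes in WT. All cells of haematopoietic clusters, members among them, had medians of 10526.5 UMIs in aGVHD, 4895.5 in BMT and 9492 in WT. Among cells with the highest doublet scores were 12 members of aGVHD, 0 of BMT and 2 of WT; none was removed, as the rule has no doublet filter.

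The genes of the rule are given as a description, since they chose the cells. Levels are in CPM, the UMIs of a gene per 1000000 UMIs of the cells named. Mcpt8 was counted in all 170 aGVHD members, at 335 CPM in the lowest cell, a median of 19707 and 48637 in the highest. In the 10 BMT members Mcpt8 spanned 102 to 38246 CPM with a median of 21877, and in the 20 WT members 178 to 29902 CPM with a median of 15412, so the 3 ranges overlap. Prss34 had a per-cell median of 24601 CPM in aGVHD (167 of 170 cells with a UMI), 34596 CPM in BMT and 19837 CPM in WT. Fcer1a, the IgE receptor chain, summed to 1289 CPM in aGVHD (1244 to 1337), 522 CPM in BMT (417 to 646) and 653 CPM in WT (568 to 746). Its aGVHD over WT ratio was 1.98 (1.72 to 2.28), while cell ranges overlapped, at 0 to 4396 CPM in aGVHD and 0 to 2838 CPM in WT. The BMT sum leans on the 2 deepest BMT members, with 39136 and 43652 of the 162760 member UMIs. These had 25.6 and 45.8 CPM of Fcer1a, and the highest BMT member had 1808 CPM. Cpa3 was level across the libraries, at 2682, 2654 and 2589 CPM in aGVHD, BMT and WT. Cd200r3 (321 CPM) and Ms4a2 (315 CPM) were counted in 146 and 160 of the aGVHD members.

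Few cells lay near the threshold in aGVHD. The members with the fewest Mcpt8 and Prss34 UMIs had 7, 11, 11 and 12, against a median of 464.5 and a highest of 1865. The cells just outside had 7 UMIs with 0 of the second gene set, then 4, 4 and 3. With each cell thinned to 2000 UMIs, Mcpt8 was counted in 98.8% of members, 0.788% of other haematopoietic cells and 1.75% of endothelial-like cells, a cell type that should lack it. Prss34 stood at 95.3%, 0.860% and 0.983% in the same 3 sets. Without thinning, 100% of members and 4.65% of other haematopoietic cells had a Mcpt8 UMI.

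**Figure D2:**
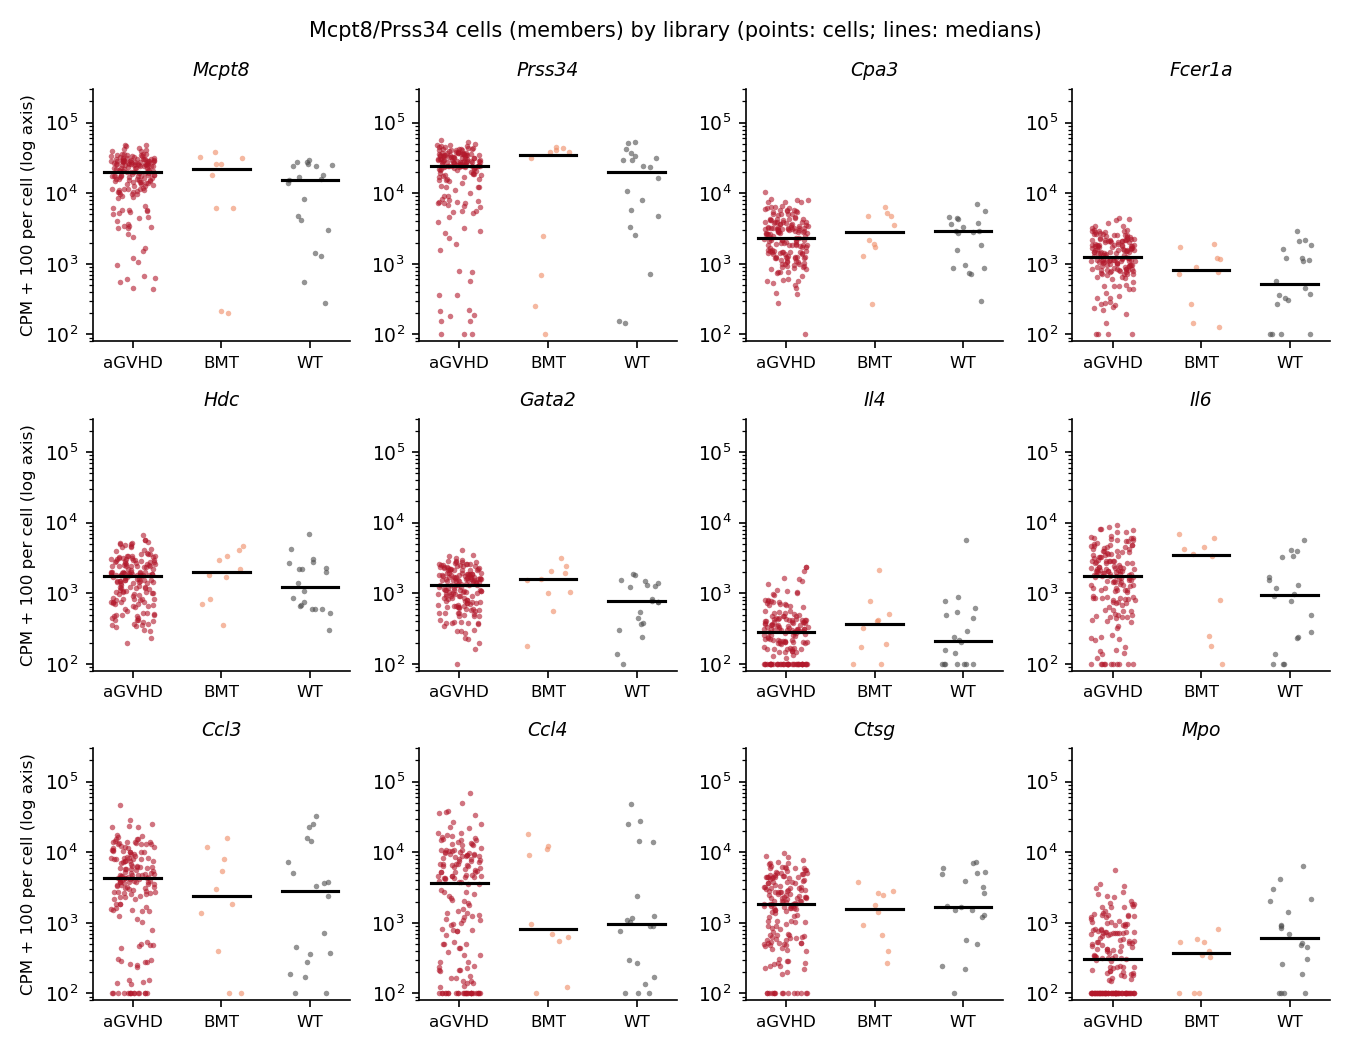
Level of 12 genes in every Mcpt8/Prss34 cell by library, as CPM plus 100 on a log axis; points are cells and lines medians, and a point at 100 is a cell with no UMI of the gene. The cells of aGVHD, BMT and WT overlap in all 12 panels.

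In a joint clustering of all called cells, 140 of the 170 aGVHD members fell in a single basophil-like cluster and 28 in a GMP-like cluster (granulocyte and monocyte progenitor) led by Mpo, Elane and Prtn3. The other 2 sat in an erythroid-like and a megakaryocyte-like cluster. BMT members divided into 8 and 2 between the basophil-like and the GMP-like cluster. WT members divided into 14 and 5, with 1 more in a chondrocyte-like cluster. The basophil-like cluster held 5 other aGVHD cells, which entered neither side of the comparison below. Of the fixed cell type lists, the members carried all 6 basophil genes, which chose them.

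Proteases of mature mast cells were nearly absent. The 9 mast proteases searched (Mcpt1, Mcpt2, Mcpt4, Mcpt9, Cma1, Cma2, Tpsb2, Tpsab1 and Tpsg1) gave 82 UMIs in the aGVHD members, or 0.0922% of their sum with Mcpt8 and Prss34 (0.0733 to 0.114%). They were counted in 17 members, and 3 had at least 5 UMIs. A single cell held 51 of the 82, 39 of them Cma1 (chymase). That cell had 5049 UMIs in all, 17 of Mcpt8 and Prss34 and 4 of Kit, the stem cell factor receptor that mast cells keep. Without it the share was 0.0349%. Mcpt4, Tpsb2 and the mast cell receptor gene Mrgprb1 had 0 UMIs in the 170 cells. The BMT members had 0 mast protease UMIs beside 4672 of Mcpt8 and Prss34, which by a limit of 3 counts allows up to 0.0642%, and the WT members 0 beside 9035, which allows up to 0.0332%.

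The 170 aGVHD members (2309514 UMIs) were set against 2987 other cells of haematopoietic clusters of the same library (36859703 UMIs, median 10468 UMIs per cell). Those were 38.0% erythroid-like, 23.4% neutrophil-like, 21.7% an unnamed cluster led by Car1, Plac8 and Pf4, 8.504% megakaryocyte-like and smaller numbers of others, among them 61 GMP-like cells. Each ratio depends on that mixture. Of 11196 genes with at least 50 UMIs over both sides, 816 (7.29%) were higher in the members and 94 (0.84%) lower by a size rule. It asked for a 2-fold ratio and an interval excluding 1. The side with the higher level also needed at least 2 times the level in empty droplets (barcodes of at most 100 UMIs). Without that last condition more genes were lower than higher, with the counts given in the closing section. At 1.5-fold alone, 20.9% of genes were higher and 28.2% lower, and the median log2 ratio over all genes was -0.09. Over the same genes the members' profile ranked most like the GMP-like cells (Spearman 0.861), then the unnamed Car1 cluster (0.822), with T/NK-like cells at 0.788, neutrophil-like cells at 0.725 and erythroid-like cells at 0.679. The GMP-like cells were the rest of a cluster that also held 28 of the 170 members, which favours their rank. These correlations run across genes of sums from 1 library and describe likeness only.

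Beside the genes of the rule, the 15 genes highest in the members by the nearer interval bound included enzymes, cytokines and receptors. Cyp11a1, which makes pregnenolone from cholesterol in the first step of steroid synthesis, had 957 CPM in members and 1.60 CPM in other haematopoietic cells, a ratio of 598 (462 to 788). Cyp11a1 was counted in all 170 members, at 60.2 CPM in the lowest cell, a median of 1058 and 5270 in the highest. The chemokine Ccl3 had 4381 CPM in members and 10.7 CPM in the others (ratio 408, 369 to 452), and the cytokine Il6 had 1695 and 4.12 CPM (ratio 411, 350 to 487). Il13, a type 2 cytokine, had 170 CPM in members and 0.624 CPM in the others (ratio 273, 179 to 435), from 83 of the 170 cells. The chemokine Ccl9 had 896 CPM in members and 5.26 CPM in the others (ratio 170, 147 to 198).

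The rest of the 15 were lower in level or in fewer cells. The adhesion molecule E-cadherin, Cdh1, had 113 CPM in members and 0.190 CPM in the others (126 members with a UMI; ratio 595, 285 to 1495). The adenosine receptor Adora2b had 190 and 1.17 CPM (136 members; ratio 163, 119 to 228). Alox15, a lipoxygenase, had 61.1 and 0.136 CPM (86 members; ratio 450, 188 to 1408). The granzyme Gzmc had 123 and 0.380 CPM, from 29 members. Grm6, a metabotropic glutamate receptor, had 80.1 CPM from 96 members and 2 UMIs in all other haematopoietic cells (ratio 1476, 403 to 12281). Angptl8 had 66 UMIs in 49 members and 0 in the others, 351-fold higher against a floor of 3 UMIs over that group (lower interval bound 278). The other 4 were the organic anion transporter Slco2b1 (296 times, 54 members), Gpr34 (2 UMIs in the others, 36 members), Aqp3 (1 UMI in the others, 24 members) and Prss28 (1 UMI in the others, 43 members).

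The 10 genes lowest in the members all had high levels in the neutrophil-like cells of the library, of which Stfa2l1 had the lowest at 1487 CPM. S100a8 had 55.0 CPM in members and 25858 CPM in other haematopoietic cells, 470-fold lower (395 to 564), and S100a9 had 98.3 and 24646 CPM. Ngp had 8.66 CPM in members and 2706 CPM in the others (313-fold lower, 202 to 512), and Camp, the cathelicidin precursor, had 4.33 and 1244 CPM. Mmp8 and Stfa2l1 had 1 UMI each over all 170 members. Wfdc21, Wfdc17, Ltf and Chil3 made up the 10, with 2 to 5 UMIs each in members. S100a8 stood at 10733 CPM in the empty droplets of the library, so the members' level was 0.512% of that in the free RNA. The haemoglobin gene Hbb-bs, another abundant free RNA, had 10481 CPM in members, 14.5% of the empty-droplet level, with a per-cell median of 370 CPM.

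The IgE receptor's gamma chain and its signalling genes were unevenly higher. Of 20 measured genes of this list, 8 were higher and 4 lower at 1.5-fold, with a median log2 ratio of 0.21, and 6 met the size rule. The gamma chain Fcer1g had 1625 CPM in members and 431 CPM in other haematopoietic cells (ratio 3.77, 3.64 to 3.91), and 97.2 CPM in the lowest member. The adaptor Lat2 had 275 and 11.99 CPM (ratio 22.9, 20.3 to 25.9). Lcp2, Gab2 and Lat were 3.97, 3.60 and 2.22 times the other cells. The kinases nearest the receptor did not meet the rule, with Syk at 25.1 CPM in members and 41.4 CPM in the others, and Lyn at 46.3 and 57.7 CPM.

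Genes for stored mediators were largely higher, with 10 of 14 at 1.5-fold, 0 lower and a median log2 ratio of 1.73; 8 met the size rule. Srgn, the proteoglycan core of secretory granules, had 6779 CPM in members and 1781 CPM in other haematopoietic cells (ratio 3.81, 3.74 to 3.87), with every member between 2348 and 18853 CPM. Hdc, which makes histamine, had 1363 and 134 CPM (ratio 10.2, 9.70 to 10.6), and Slc18a2, which loads amines into granules, had 360 and 19.3 CPM (ratio 18.7, 16.9 to 20.6). The granule membrane protein Cd63 had 1851 CPM in members and 85.2 CPM in the others. Cathepsin G, Ctsg, had 2767 and 32.01 CPM (ratio 86.4, 81.2 to 92.1) from 155 members, and granzyme B, Gzmb, had 359 and 12.1 CPM from 72 members. Ctsg is also on the list of GMP granule genes below. The 6 GMP markers, Ctsg among them, summed to 4125 CPM in members and 6259 CPM in the GMP-like cells outside the rule.

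For lipid mediators, 6 of 11 measured genes were higher, 1 was lower and the median log2 ratio was 1.27. The 5-lipoxygenase Alox5 had 233 CPM in members and 18.3 CPM in other haematopoietic cells (ratio 12.7, 11.3 to 14.3), and its activating protein Alox5ap had 1273 and 484 CPM. Ltc4s, the next step towards cysteinyl leukotrienes, had 6.06 CPM in members and 8.65 CPM in the others and did not meet the rule. Ptgs2, the inducible cyclooxygenase, had 49.4 and 3.96 CPM from 34 members, while Ptgs1 had 3.03 and 10.96 CPM.

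The list of cytokines and chemokines known from basophils or mast cells had the highest median log2 ratio, 3.68. Of its 21 measured genes, 17 were higher and 2 lower, and 15 met the size rule. The genes were listed because these cell types are known to make them, so the rank says nothing about cytokines in general. Il4 had 226 CPM in members and 1.60 CPM in other haematopoietic cells (ratio 141, 107.7 to 188), with 128 of 170 members holding a UMI, a median of 181 CPM and a highest cell at 2269. Ccl4 had 4066 and 38.7 CPM (ratio 105, 99.5 to 111), Ccl6 had 2376 and 130 CPM, and Il1b had 1367 and 68.4 CPM. Cxcl2, a neutrophil attractant, had 3524 CPM in members and 293 CPM in the others, and its level in the neutrophil-like cells was 1390 CPM. The growth factors Csf1 (286 and 12.4 CPM) and Hgf (133 and 1.49 CPM) and the gp130 cytokine Osm (431 and 33.6 CPM) were each higher in members. Lif reached 6.07 times the others, but 53.2% of its UMIs came from 1 member. Il3, Il5, Il9, Il10 and Ccl24 had 0 UMIs in the 170 cells.

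Among cytokine and growth factor receptors, 11 of 22 were higher, 7 lower and the median log2 ratio was 0.80; 10 met the size rule. The interleukin 3 receptor alpha chain Il3ra had 156 CPM in members and 6.84 CPM in other haematopoietic cells (ratio 22.8, 19.4 to 26.9). The common beta chains were higher too, with Csf2rb at 528 and 46.8 CPM (ratio 11.3, 10.5 to 12.1) and Csf2rb2 20.5 times the others (18.1 to 23.2). The interleukin 33 receptor Il1rl1 had 172 and 12.3 CPM (ratio 13.96, 12.2 to 16.0), Il18rap had 140 and 10.6 CPM, and the thymic stromal lymphopoietin receptor Crlf2 had 254 and 64.1 CPM. Receptors of other lineages had low levels in members. Csf3r had 1 UMI over the 170 cells, and Epor had 3.46 CPM in members against 27.7 CPM in the others. Kit had 12.99 CPM in members and 28.7 CPM in the others.

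Surface molecules gave 19 higher and 9 lower of 32, with a median log2 ratio of 1.03; 17 met the size rule as higher and Ly6c2 as lower. The gut-homing integrin chain Itgb7 had 236 CPM in members and 22.2 CPM in other haematopoietic cells (ratio 10.6, 9.52 to 11.9). Lilrb4a, an inhibitory receptor, had 749 and 91.9 CPM. The complement receptor C3ar1 had 57.2 and 0.895 CPM, and Cd200r4, an activating receptor related to Cd200r3, had 54.6 and 1.06 CPM. The chemokine receptors Ccr2 and Cxcr4 were 23.5 and 5.51 times the others. Ptprc, which encodes the CD45 that the sort removed by staining, had 107 CPM in members and 88.4 CPM in the others (ratio 1.21, 1.06 to 1.38), with a UMI in 124 of the 170 members.

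Of 35 transcription factors of basophils, mast cells and neighbouring lineages, 10 were higher and 11 lower, with a median log2 ratio of 0.27; 7 met the size rule. Gata2 had 1073 CPM in members and 64.8 CPM in other haematopoietic cells (ratio 16.5, 15.6 to 17.5), was counted in 169 members and had a median of 1199 CPM. Cebpa had 285 and 5.18 CPM (ratio 55.1, 46.8 to 65.03), Runx1 had 372 and 81.2 CPM (ratio 4.59, 4.25 to 4.95), and Cebpb had 2281 and 571 CPM. Runx2, Ikzf2 and Nfil3 were 4.19, 9.98 and 5.51 times the others. Erythroid factors were lower, with Klf1 at 9.09 CPM in members and 75.04 CPM in the others, and Zfpm1, the GATA1 cofactor, at 17.8 and 124 CPM. Mitf, a factor of mast cells, had 1.30 CPM in members and 1.57 CPM in the others.

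**Figure D3:**
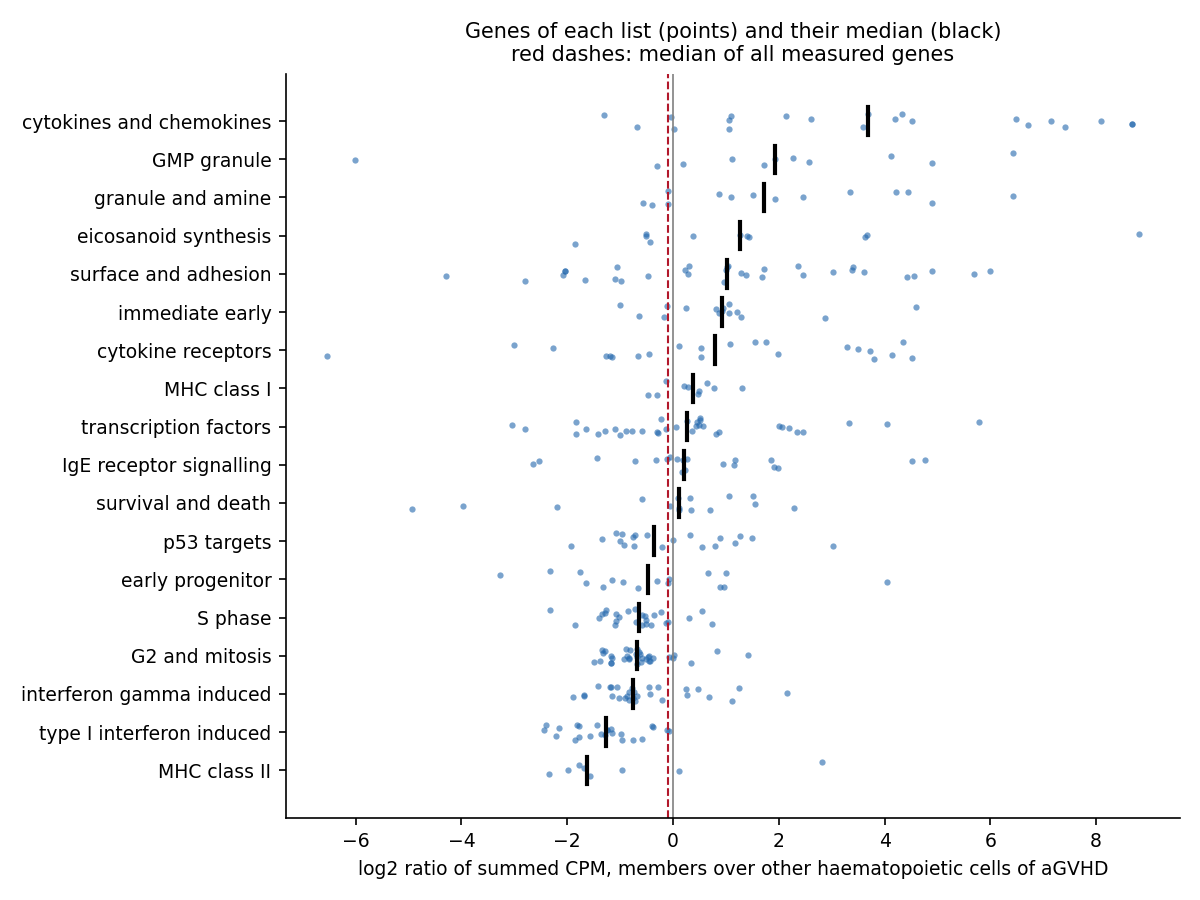
Log2 ratio of summed CPM, Mcpt8/Prss34 cells (members) over other haematopoietic cells of the aGVHD library, for the measured genes of 18 lists; points are genes, black marks list medians, the red dashed line the median of all measured genes (-0.09). List medians run from 3.68 for cytokines and chemokines known from basophils or mast cells to -1.62 for MHC class II.

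Granule genes of granulocyte and monocyte progenitors were present in many members, with 8 of 11 higher, 1 lower and a median log2 ratio of 1.93. Mpo (myeloperoxidase) had 736 CPM in members and 42.1 CPM in other haematopoietic cells (ratio 17.5, 16.3 to 18.8), in 108 of the 170 members, and the GMP-like cells outside the rule had 1561 CPM. Ms4a3 had 355 CPM in members and 351 CPM in those GMP-like cells. Elane (neutrophil elastase) was found in 23 members, with 71.5% of its UMIs in 1 cell. Lyz2, a lysozyme of neutrophils and monocytes, had 12.6 CPM in members and 811 CPM in the others. Of 16 early progenitor genes, 5 were higher and 8 lower (median log2 ratio -0.48); 1, Gata2, met the size rule.

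Cell cycle genes took a near equal part of the RNA on both sides, 0.548% of UMIs in members and 0.558% in other haematopoietic cells, but were spread differently over cells. The median cell had 0.347% in members and 0.235% in the others, while 10.6% of members (18 of 170) and 19.8% of the others held at least 1%. The S phase list had 1 gene higher and 15 lower of 26 (median log2 ratio -0.65), and the G2 and mitosis list 2 higher and 23 lower of 35 (-0.68). Mki67 had 83.6 CPM in members and 212 CPM in the others, whereas Cks2 had 1160 and 433 CPM. The GMP-like cells held 0.409% cell cycle UMIs, the neutrophil-like cells 0.158% and the erythroid-like cells 0.960%. Free RNA also enters such shares, and its part was not tested.

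Interferon-induced genes were lower in members than in the other haematopoietic cells of aGVHD. Of 29 interferon gamma induced genes, 4 were higher and 18 lower (median log2 ratio -0.76). Of 24 type I interferon induced genes 0 were higher and 19 lower (-1.27). None of either list met the size rule, whose empty-droplet condition can fail a gene that is over 2-fold lower. Empty droplets of aGVHD held 4725 CPM of the interferon gamma list and 3076 CPM of the type I list. Isg15 had 112 CPM in members and 267 CPM in the others, and Ifitm3 had 361 and 1234 CPM. Cxcl9 had 353 CPM in members and 79.5 CPM in the others, but 45.7% of its UMIs lay in 1 of the 14 members that had any, and empty droplets held 889 CPM. MHC class I genes were 3 higher and 0 lower of 10 (median 0.38), with B2m at 2931 CPM in members and 2080 CPM in the others. MHC class II genes were 1 higher and 6 lower of 8 (median -1.62). H2-Oa was the 1 higher, at 91.8 and 13.02 CPM (ratio 7.05, 5.97 to 8.30), beside Cd74 at 78.8 and 270 CPM.

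Immediate early genes had 10 of 15 higher and 2 lower (median 0.93), and 2, Jund and Ier3, met the size rule. Ier3 led, at 2897 CPM in members and 120 CPM in other haematopoietic cells (ratio 24.2, 23.3 to 25.2). The list summed to 9459 CPM in members and 6703 CPM in the empty droplets of aGVHD. Of 20 p53 targets, 6 were higher and 9 lower (median -0.35), and Pmaip1, Ddit4 and Bbc3 met the size rule at 8.19, 2.83 and 2.41 times the others. Of 15 survival and death genes, 5 were higher and 4 lower (median 0.11); the STAT5 targets Cish and Pim1 were 4.87 and 2.07 times the others.

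Markers of other cell types differed by list. The 10 neutrophil markers summed to 406 CPM in members and 62418 CPM in other haematopoietic cells. The 9 eosinophil markers summed to 1279 CPM in members and 18.0 CPM in the others, with 98.8% in 1 member of the GMP-like cluster that held 2654 UMIs of Prg2 among 46520 and was not among the high doublet scores; Ear1, Ear2 and Ear6 were at 0. The 8 LepR stromal markers summed to 1015 CPM in members and 405 CPM in the others, with 30.4% in 1 member that the doublet caller marked. Without the likely doublets (158 members left) they summed to 57.4 CPM. Erythroid markers summed to 314 and 2543 CPM and megakaryocyte markers to 700 and 2162 CPM. The 10 T and NK cell markers summed to 364 CPM in members and 166 CPM in the others (841 UMIs, of which 835 were Nkg7), and Cd3e, Cd3g and Cd8a had 0 UMIs in members. B lineage markers summed to 30.7 and 15.5 CPM, with Pax5 and Ms4a1 at 0, mural markers to 54.6 and 35.2 CPM, and endothelial markers to 126 and 117 CPM, with Stab2 at 0. The part of these markers in the other results was not tested.

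The members were not uniform. The 28 in the GMP-like cluster were deeper (median 22603 UMIs) than the 140 in the basophil-like cluster (median 9927.5 UMIs), and had a median of 114.5 against 543 UMIs of Mcpt8 and Prss34. Genes that the clustering saw are given here as a description. Mcpt8 summed to 5071 CPM in the GMP-like and 22673 CPM in the basophil-like set, Hdc to 384 and 1755 CPM, Gata2 to 475 and 1301 CPM, and Ccl3 to 288 and 6026 CPM. Mpo ran the other way, at 1584 and 409 CPM, and Ctsg differed little, at 2948 and 2716 CPM. Over the 170 cells, from 1 library and with depth shared by both measures, the Spearman correlation of CPM was 0.82 for Mcpt8 with Prss34, 0.70 for Ctsg with Mpo, 0.73 for Ccl3 with Il6 and also for Ccl3 with Ccl4. Hdc and Mpo had -0.63. Hdc itself had -0.67 with the UMIs per cell and Mpo 0.66, so both move with depth.

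**Figure D4:**
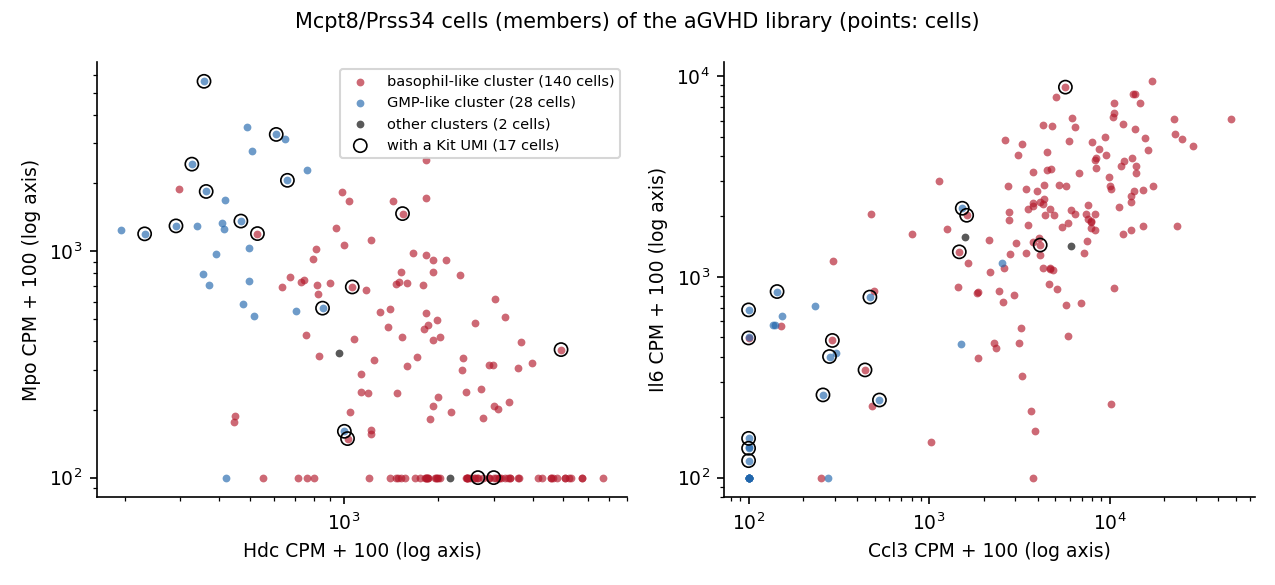
Hdc against Mpo (left) and Ccl3 against Il6 (right) in the 170 Mcpt8/Prss34 cells (members) of aGVHD, as CPM plus 100 on log axes. Points are cells, blue those of the GMP-like cluster, red those of the basophil-like cluster and black the other 2. Rings mark the 17 cells with a Kit UMI. Most cells of the GMP-like cluster lie at low Hdc and low Ccl3, with summed levels of 384 and 288 CPM.

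A Kit UMI was found in 17 of the 170 members, 10 of them in the GMP-like cluster. These cells had a median of 20902 UMIs, against 10549 UMIs in the 153 members without, so a Kit UMI also goes with depth. At 2000 UMIs per cell, the 8 genes outside the rule that differed most in share of cells were Lilr4b, Ccl6, Mpc2, Cyp4f18, Cd52, Fxyd5 and Ccl3, all lower with a Kit UMI, and Pebp1, which was higher. Ccl3 was counted in 47.1% of thinned cells with a Kit UMI and 86.3% of those without (70.6% and 93.5% unthinned), at 519 and 5051 CPM. Cd34, a progenitor surface marker, had 82.1 CPM with and 23.4 CPM without a Kit UMI (ratio 3.51, 2.11 to 5.74), and Mpo had 1793 and 553 CPM. Gata2 had 703 and 1137 CPM, and Fcer1a 583 and 1412 CPM.

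The 43 members with the highest share of cell cycle UMIs (at least 0.644%) were set against the 43 with the lowest (at most 0.195%). The median depth was 15484 UMIs in the high set and 7646 in the low set. Ran, Stmn1, Mpo, Dek, Hmgn2, Hint1 and Hist1h2ap were in a larger share of thinned cells of the high set and Ccl6 in a smaller one. Mpo was counted in 67.4% and 13.95% of thinned cells (83.7% and 34.9% unthinned), at 709 and 169 CPM, and Ctsg summed to 3491 CPM in the high and 1050 CPM in the low set (ratio 3.32, 2.99 to 3.70). Hdc ran lower in the high set, at 1056 and 2387 CPM, as did Il1b at 634 and 2906 CPM and Ccl4 at 2697 and 9849 CPM. Mcpt8 (19552 and 20491 CPM) and Prss34 (22986 and 23311 CPM) were close in both. Kit had 2.63 CPM in the high and 13.03 CPM in the low set, from few UMIs.

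Y-linked genes are transcribed in male cells, and the recipients and spleen donors are labelled female. At least 1 UMI of Ddx3y, Eif2s3y, Kdm5d or Uty was found in 77 of the 170 aGVHD members (45.3%, 37.7 to 53.1%), and Xist, the RNA of the inactive X chromosome, in 70 (41.2%, 33.7 to 49.0%). Of the members, 71 had Y-linked RNA without Xist, 64 Xist without Y-linked RNA, 6 both and 29 neither. The other haematopoietic cells of aGVHD had Y-linked UMIs in 43.2% and Xist in 23.2%, the endothelial-like cells in 0.488% and 82.3%, and the T/NK-like cells in 8.14% and 93.0%. Y-linked UMIs were in 8 of the 10 BMT members, with Xist in 2. They were in 0 of the 20 WT members, which by the limit of 3 counts allows up to 15%, with Xist in 19. With each cell thinned to 2000 UMIs, the share with Y-linked UMIs was 12.9% in aGVHD and 10% in BMT, so these shares depend on depth.

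**Figure D5:**
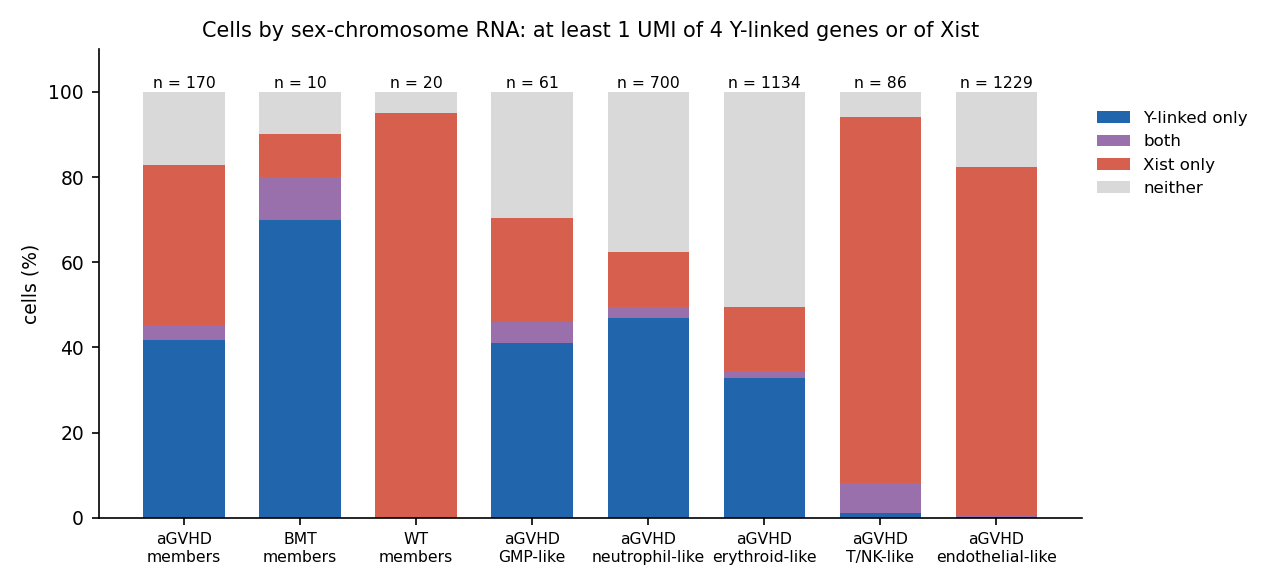
Share of cells (percent) with a UMI of Y-linked genes, of Xist, of both or of neither, for Mcpt8/Prss34 cells (members) of each library and other classes of aGVHD; segments of a bar are shares and n is the number of cells. Members of aGVHD hold 71 cells with Y-linked RNA alone and 64 with Xist alone, and members of WT 0 with Y-linked RNA.

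Among aGVHD members, the 71 cells with Y-linked RNA alone and the 64 with Xist alone had similar depth (medians 11210 and 11314.5 UMIs) and similar cell cycle shares (0.564 and 0.515%). The basophil-like cluster held 53 of the 71 and 56 of the 64. Mcpt8 summed to 14485 CPM in the cells with Y-linked RNA and 19977 CPM in those with Xist (ratio 0.725, 0.709 to 0.741). Il13 had 105 and 201 CPM (ratio 0.524, 0.407 to 0.671), Osm 280 and 487 CPM (ratio 0.575, 0.493 to 0.671), and B2m 2752 and 2968 CPM (ratio 0.927, 0.878 to 0.979). Mpo ran the other way, at 1022 and 545 CPM (ratio 1.87, 1.68 to 2.10). So did the cell cycle gene Mki67, at 105 and 58.7 CPM (ratio 1.79, 1.27 to 2.56), in 38.0% and 14.1% of unthinned cells.

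The gene that differed most in share of thinned cells, chosen after its values were seen, was Ctse, which encodes cathepsin E, an aspartic protease. Ctse was counted in 38.0% of thinned members with Y-linked RNA alone and 1.56% of those with Xist alone (90.1% and 14.1% unthinned). Its summed level was 295 and 24.7 CPM (ratio 11.98, 7.69 to 19.6), with a UMI in 64 of 71 and 9 of 64 cells. The same split in other classes of aGVHD gave 128 and 9.15 CPM in GMP-like cells, and 181 and 15.5 CPM in the unnamed Car1 cluster (ratio 11.7, 8.78 to 15.9). Neutrophil-like cells had 126 and 61.4 CPM (ratio 2.05, 1.53 to 2.81), while erythroid-like cells had 429 and 428 CPM. Megakaryocyte-like cells had 11.2 and 12.2 CPM (ratio 0.913, 0.338 to 2.70), from 13 and 7 UMIs. The members of BMT had 313 CPM of Ctse and those of WT 61.3 CPM.

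Across libraries, gene lists were compared between the 170 members of aGVHD, the 10 of BMT and the 20 of WT, each a single library with few cells in BMT and WT. The comparisons with BMT and with WT share the aGVHD members. Genes entered by UMIs summed over both sides, and members held 2309514 UMIs in aGVHD, 162760 in BMT and 326370 in WT. A gene low in aGVHD was therefore more likely to drop out. This limits the counts of lower genes in all lists below, those of 0 included. Of 4803 genes with enough UMIs, 18.9% were at least 1.5-fold higher and 9.95% lower in aGVHD over WT. Of 4651 genes in aGVHD over BMT, 16.8% were higher and 25.9% lower. Interferon gamma induced genes were higher over WT in 18 of 21 measured (median log2 ratio 1.31) and 0 were lower; over BMT 6 were higher and 4 lower. The list summed to 2017 CPM in aGVHD, 1843 in BMT and 778 in WT, with cell medians of 1033, 1102 and 618 CPM. In BMT 51% of these UMIs came from 1 cell.

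MHC class I genes were higher over WT in 8 of 9 (median log2 ratio 0.99), and over BMT 1 was higher and 2 lower. The list summed to 8991 CPM in aGVHD, 9978 CPM in BMT and 4636 CPM in WT. B2m had 2931, 3619 and 1385 CPM, with every BMT member at or above 2021 CPM and WT members between 275 and 2898 CPM. Type I interferon induced genes summed to 881, 676 and 288 CPM; without the likely doublets they stood at 625, 676 and 331 CPM, below BMT in aGVHD, and without members holding the other markers described next at 503, 604 and 323 CPM. These lists also stood high in the empty droplets, where interferon gamma induced genes held 4725 CPM in aGVHD, 5006 CPM in BMT and 648 CPM in WT, and MHC class I genes 9039, 13290 and 2776 CPM. The part of free RNA in the members' levels was not tested. Without the likely doublets the interferon gamma list stood at 1347, 1843 and 843 CPM. Without members holding 10 or more UMIs of stromal, vessel, erythroid, megakaryocyte or eosinophil markers (138, 9 and 14 members left) it stood at 1226, 2116 and 824 CPM, and MHC class I at 8564, 10646 and 5345 CPM.

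Cytokines and chemokines were higher over WT in 10 of 17 with 0 lower (median log2 ratio 0.83), and over BMT in 6 with 1 lower. The filter on summed UMIs limits these counts of lower genes too. They summed to 19976 CPM in aGVHD, 12337 CPM in BMT and 12955 CPM in WT, with cell medians of 22669, 13635 and 11379 CPM. Without members holding the other markers described above they summed to 22882, 16708 and 17442 CPM. In BMT, 2 members of the GMP-like cluster held 39136 and 43652 of the 162760 member UMIs and no Ccl3 UMI. Sums over the BMT members, of this list and of single genes, therefore weigh these cells most. The part of the cluster mix in the differences between libraries was not tested. Cxcl2 had 3524, 479 and 542 CPM, was counted in 116 of 170, 4 of 10 and 8 of 20 members, and had 62.8% and 62.1% of its BMT and WT UMIs in 1 cell. Il1b had 1367, 989 and 138 CPM, with 82.2% of the WT UMIs in 1 cell. Il4 had 226, 276 and 214 CPM, with 62.2% of the BMT and 40% of the WT UMIs in 1 cell. Ccl3 had 4381, 2931 and 4287 CPM, with 45.3% and 22.5% of the BMT and WT UMIs in 1 cell. Cebpb had 2281, 1628 and 843 CPM. G2 and mitosis genes were lower over WT in 12 of 24 with 0 higher (median log2 ratio -0.55), and cell cycle UMIs made up 0.548, 0.618 and 0.661% of the members' RNA in aGVHD, BMT and WT.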

How the data were processed

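The deposited files hold raw UMI counts per gene and barcode, which the authors made with Cell Ranger (3.1.0 per the file headers; mm10 and Seurat are also named in the submitters' processing notes). Of 27998 genes and 6794880 barcodes listed per library, barcodes with at least 1000 UMIs, 500 genes and under 10% mitochondrial UMIs were kept. Library depth was 67439098 UMIs in aGVHD, 44219063 in BMT and 86575425 in WT. All called cells were clustered together (scanpy 1.11.5, 2000 variable genes, 30 principal components, 15 neighbours, Leiden resolution 1, seed 1), and clusters were named from marker lists. Counts were summed per group of cells and given as CPM with exact Poisson intervals, ratios with exact conditional intervals and shares with exact Clopper-Pearson intervals (SciPy 1.17.1), all at 95% and covering counting error only. With 1 library per group no test was run. Genes needed 50 UMIs over both sums, and a count of 0 was given a floor of 3 UMIs. Shares of cells were compared after thinning to 2000 UMIs, which left out 0 members, 195 other haematopoietic and 313 endothelial-like cells. Doublets were scored and not removed, except in an alternative.

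Named genes were the 6 genes of the rule, the 15 highest and 10 lowest by the interval bound nearest 1 (leaving out ribosomal, mitochondrial, haemoglobin, immunoglobulin and unnamed genes), genes of each list with the most UMIs or past the size rule, and the 8 genes most different in share within the members. The members and lists were chosen with earlier results of these data known. Alternatives changed the thresholds of the rule, the cell filters, doublets, the comparison cells, the weighting and the gene filter; those that leave out members by other markers, by shared barcodes or by mast protease UMIs were chosen after seeing the data. The computations were tested on simulated counts. Promoter sequences came from RefSeq (GRCm38.p6). A few genes of the lists are not reported here by name.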

Additional observations from a re-analysis of the deposited data

How the results depend on the processing

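No log2 ratio of a named gene between members and other haematopoietic cells changed direction under the alternatives run. Neither did the ratios of member shares for aGVHD over BMT and for aGVHD over WT. The BMT over WT ratio, whose counting interval included 1 on either denominator, was not computed under the alternatives, so its direction there is not stated. Of 139 alternative values of the main results, 125 stayed (counts of genes within 1.5 times, other values within the 95% counting interval of the main value) and 14 moved; of 702 values of single genes and lists, 611 stayed and 91 moved. The order of aGVHD and BMT members turned for 2 lists without the likely doublets, with interferon gamma induced genes at 1347 and 1843 CPM against 2017 and 1843 CPM with all members, and type I interferon induced genes at 625 and 676 CPM against 881 and 676 CPM. Requiring 2000 UMIs and 1000 genes per barcode gave a share of members of 3.86% of called and 7.04% of haematopoietic cells in aGVHD, and 145 genes lower in members. Calling haematopoietic cells cell by cell gave 7.92% in aGVHD and 2.78% in WT. The count of lower genes was 150 without the neutrophil clusters, 343 with equal weight per cell and 1497 without the empty-droplet condition, under which 1313 genes were higher. Cell cycle UMIs were 0.479% of the members' RNA with equal weight per cell and 0.503% thinned to 2000 UMIs. The share of members with Y-linked UMIs was 12.9% in aGVHD and 10% in BMT at that depth, the reverse of their order unthinned (45.3% and 80%). Without the member with the most mast protease UMIs, an alternative chosen after seeing the data, the mast protease share was 0.0349%. For those values whose alternative does not itself show the reason, the cause was not tested. No paired analysis was possible because each group has 1 library. The 10 members of BMT and 20 of WT limit what the comparisons between libraries can show, since single cells hold over 50% of some genes' UMIs there.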
